A study of Mus musculus with 9 samples.

Results

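The genes described here encode 10 parts of the machinery that places the growth-controlling kinase mTOR on the lysosome, measured in laser-induced choroidal neovascularization of the mouse. They are the Rag GTPase genes Rraga, Rragc and Rragd, the 5 genes of the Ragulator complex (Lamtor1 to Lamtor5), and Mtor and Akt1s1 of mTOR complex 1 (mTORC1). They were picked by symbol out of 24421 symbols in the deposited count tables, because Rraga stood low in both treated groups, and its partners were set beside it. All 10 were in the tables, and all 10 passed the filter on low counts.

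A Rag dimer joins RagA or RagB to RagC or RagD, and Ragulator holds that dimer on the lysosomal surface. When amino acids are plentiful, the dimer binds the mTORC1 subunit Raptor and brings the kinase to the lysosome, where the small GTPase Rheb switches it on. Active mTORC1 then drives protein synthesis and holds back autophagy, partly by keeping the transcription factor TFEB out of the nucleus.

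The study measured RNA from lesions made by laser burns that break the Bruch membrane, after which new vessels grow inwards from the choroid. The mice were male and 8 weeks old, had 4 burns in each eye, and received 5 µg of reagent into the vitreous from a solution of 5 mg/ml. The sources used here give no strain or genotype. The groups, with 3 libraries each, were Fc, the constant fragment of an antibody given as control, ABTAA, which clusters angiopoietin 2 into an activator of the vessel receptor Tie2, and VEGF Trap, which soaks up VEGF as a decoy. All 3 groups carried burns and an injection, so no group shows unburnt tissue. Laser capture microdissection took the lesion with a rim of pigment epithelium and choroid, and the 3′ ends of transcripts were counted. The labels do not say which animal, or how many, gave each library, and a p-value here therefore speaks of spread between libraries that may be technical. The sample titles say Fc, and they were followed, although the headings inside those 3 tables name knockout controls.

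Total counts ran from 6335805 to 14439835 per library, and 3 counts, taken as the floor of detection, equalled 0.209 to 0.469 CPM (counts scaled to a common library size and composition). This floor covers counting error only. None of the markers of pigment epithelium, endothelium or macrophages that were looked up was at 0 in any group, and summed pigment epithelium markers lay between 1211 and 2265 CPM. The library Fc 1 stood apart in its summed neutrophil markers, at 517 CPM against 88.6 CPM in Fc 2 and 139.7 CPM in Fc 3. That sum was 46.6 to 63.9 CPM in ABTAA, below every Fc library, and 52.95 to 109.9 CPM in VEGF Trap.

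Promoters are shown for Rraga, its dimer partner Rragc, and the Ragulator genes Lamtor1 and Lamtor4, because the hexamer CACGTG, the core of the element that TFEB binds, is present in the last 3 and not in the window of Rraga. The sequences are from RefSeq on GRCm38.p6 and run from 250 bases before to 50 bases after the transcription start, 5′ to 3′ on the strand of the gene, with CACGTG in capitals. The windows are chr4:86575423-86575722 for Rraga, chr4:123917183-123917482 for Rragc, chr7:101905587-101905886 for Lamtor1 and chr5:138255232-138255531 for Lamtor4, all on the plus strand.
Rraga: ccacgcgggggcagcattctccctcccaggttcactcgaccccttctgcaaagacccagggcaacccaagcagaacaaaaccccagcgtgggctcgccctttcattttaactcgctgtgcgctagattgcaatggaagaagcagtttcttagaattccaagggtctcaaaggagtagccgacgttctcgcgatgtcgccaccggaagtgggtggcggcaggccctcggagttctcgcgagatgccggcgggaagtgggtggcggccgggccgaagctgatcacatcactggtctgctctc
Rragc: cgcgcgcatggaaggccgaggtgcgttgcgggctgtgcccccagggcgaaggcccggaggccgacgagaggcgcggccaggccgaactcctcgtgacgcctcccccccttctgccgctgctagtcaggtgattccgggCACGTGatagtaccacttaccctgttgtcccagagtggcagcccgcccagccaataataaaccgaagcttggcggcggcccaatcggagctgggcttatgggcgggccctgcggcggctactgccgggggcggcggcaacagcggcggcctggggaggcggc
Lamtor1: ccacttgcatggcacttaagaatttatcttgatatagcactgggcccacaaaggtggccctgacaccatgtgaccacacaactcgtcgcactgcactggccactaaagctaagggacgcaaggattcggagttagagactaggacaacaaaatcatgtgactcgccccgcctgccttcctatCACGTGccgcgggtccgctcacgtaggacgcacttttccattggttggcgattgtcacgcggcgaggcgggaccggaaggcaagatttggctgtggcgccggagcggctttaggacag
Lamtor4: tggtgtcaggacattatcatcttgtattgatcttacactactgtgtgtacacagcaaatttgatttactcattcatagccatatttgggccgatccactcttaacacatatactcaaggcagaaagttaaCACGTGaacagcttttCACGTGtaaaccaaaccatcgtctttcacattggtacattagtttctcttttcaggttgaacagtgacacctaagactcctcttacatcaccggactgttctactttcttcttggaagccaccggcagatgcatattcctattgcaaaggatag
CACGTG reads the same on both strands. It begins at -112 from the start site in Rragc, at -68 in Lamtor1, and at -120 and -104 in Lamtor4. Of the 9 genes with a promoter entry, these 3 held it, as did 7.15% of all 32851 promoters of this length. A longer palindrome with CACGTG at its centre was also searched for. It was in 0 of the 9 genes and in 0.326% of all promoters. Whether the 9 genes differ from all promoters in either share was not tested. A match describes the letters alone and is not a measured binding site.

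In the Fc libraries Rraga, which encodes the RagA GTPase, stood at 107, 119 and 88.4 CPM. In ABTAA it stood at 34.4, 30.2 and 58.0 CPM, and in VEGF Trap at 32.8, 33.5 and 35.4 CPM. All 6 treated libraries lay below the lowest Fc library, and the library ABTAA 3 was the highest of the treated ones. The raw counts behind these values were 1149, 1397 and 1158 in Fc, 333, 305 and 371 in ABTAA, and 396, 481 and 255 in VEGF Trap. The level fitted by edgeR was 38.7% of that in Fc with ABTAA and 32.3% with VEGF Trap. The fitted log2 fold change was -1.37 ± 0.20 (SE, 95% interval -1.79 to -0.95) for ABTAA minus Fc and -1.63 ± 0.20 (-2.05 to -1.21) for VEGF Trap minus Fc. These differences chose the genes and are given as a description with no test, and both comparisons share the Fc libraries. In bulk tissue, fewer cells of a type and less RNA per cell cannot be told apart.

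Among 14054 tested genes, Rraga had the 91st lowest log2 fold change with ABTAA and the 66th lowest with VEGF Trap. Among the 3275 genes with a mean of at least 50 CPM, 2 lay lower with ABTAA and 1 with VEGF Trap. Leaving out each library in turn gave -1.70 to -1.19 for ABTAA, with the smallest difference without ABTAA 2 and the largest without ABTAA 3, and -1.74 to -1.53 for VEGF Trap. Skeletal muscle markers, all 13 of the list and none at 0, summed to 157 to 234 CPM in Fc, 301 to 609 CPM in ABTAA and 283 to 473 CPM in VEGF Trap. With that total as a covariate, the log2 difference of Rraga was -1.28 for ABTAA and -1.56 for VEGF Trap. These are point estimates without an interval. With that covariate, which is partly confounded with the group, 0 of the 10 genes passed in either comparison with Fc. Over all tested genes 0 passed for ABTAA and 1 for VEGF Trap, against 197 and 144 without it. The loss is thus not particular to the 10 genes. The 9 endothelial markers, none at 0, summed to 1649 to 2070 CPM in Fc, 2590 to 2693 CPM in ABTAA and 1983 to 2160 CPM in VEGF Trap. The 9 macrophage markers, none at 0, summed to 1640 to 1779 CPM in Fc, 1283 to 1532 CPM in ABTAA and 1582 to 1864 CPM in VEGF Trap. The part of endothelial, macrophage and neutrophil content in the values of Rraga was not tested.

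**Figure D1:**
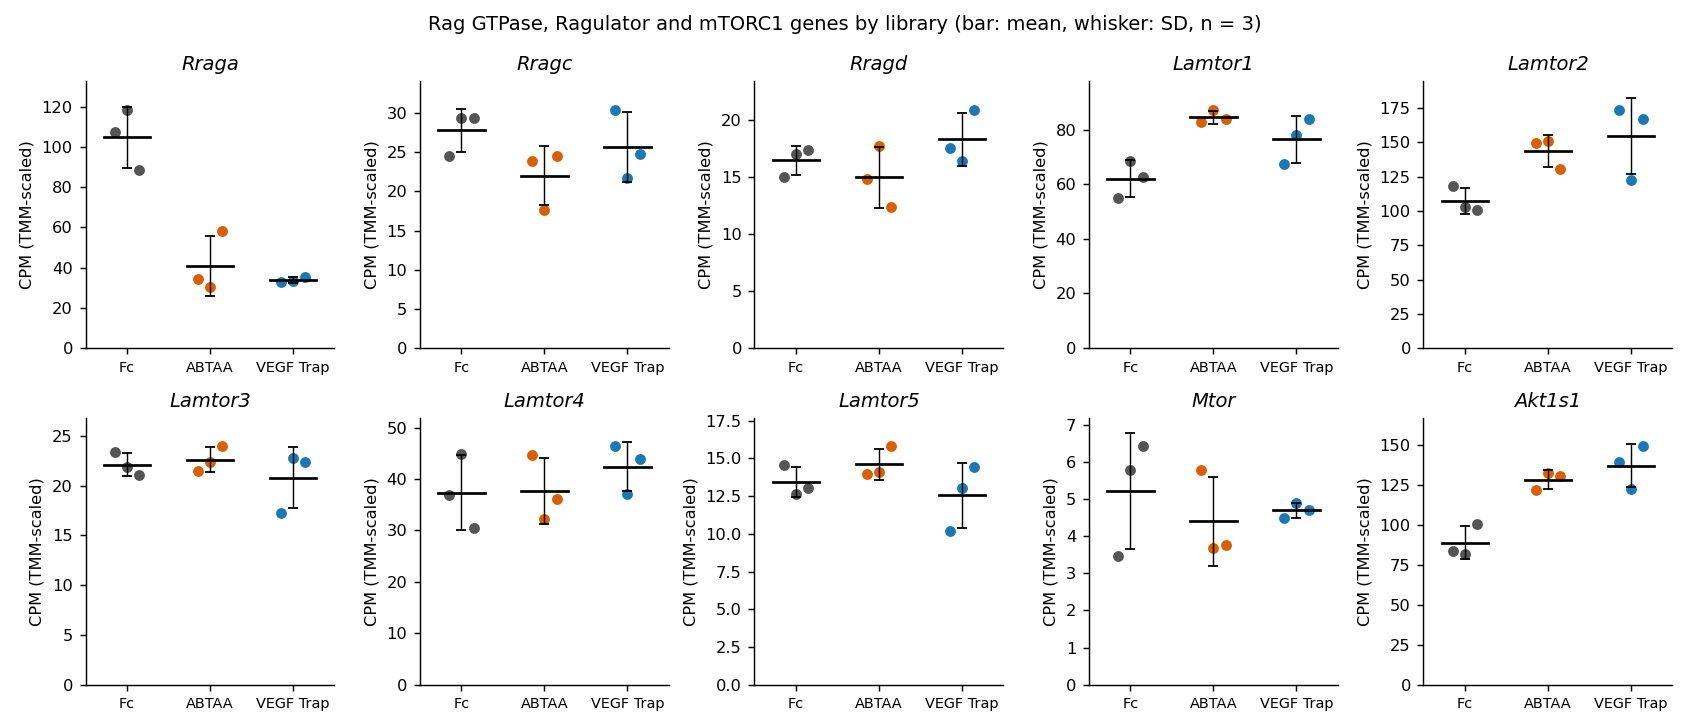
Level of each of the 10 genes in CPM by group, with 1 panel per gene and an axis that starts at 0 in each. Points are libraries, bars are means and whiskers are SD (n = 3). The Rraga points of ABTAA and VEGF Trap lie at 30.2 to 58.0 CPM and those of Fc at 88.4 to 119 CPM, whereas the groups overlap for Rragd, Lamtor3, Lamtor4, Lamtor5 and Mtor.

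Rraga is a gene of 1 exon and 1618 bases on chromosome 4 (GRCm38, 86575668 to 86577285, plus strand), with no annotated exon on the other strand and no near-identical copy of its 3′ end in the reference transcripts. The next protein-coding gene at higher coordinates, Haus6, a subunit of the augmin complex of the mitotic spindle, lies 1569 bases away. Haus6 was at 5.23 ± 0.82 CPM in Fc, 2.82 ± 0.28 in ABTAA and 3.13 ± 0.81 in VEGF Trap (SD, n = 3 each). Both treated groups of Haus6 lay below Fc without overlap. The groups did not overlap for 23.0% of all tested genes with ABTAA and 20.9% with VEGF Trap. The log2 fold change of Haus6 did not pass the test for ABTAA (-0.88 ± 0.32, adjusted p = 0.176, edgeR) or VEGF Trap (-0.72 ± 0.31, adjusted p = 0.278). Plin2, a coat protein of lipid droplets and the gene after Haus6, gave 0.09 ± 0.11 (adjusted p = 0.758) and 0.30 ± 0.11 (adjusted p = 0.2). On the lower side the nearest protein-coding gene, Saxo1, had 0 counts in every library. Adamtsl1, the next, gave 0.32 ± 0.16 (adjusted p = 0.33) and 0.21 ± 0.16 (adjusted p = 0.571). Neither Plin2 nor Adamtsl1 passed the threshold of 0.05. Plin2 with VEGF Trap and Adamtsl1 with ABTAA lay above Fc without overlap.

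RagB, the close relative of RagA that can take its place in the dimer, was barely counted. Rragb had 2, 12 and 2 counts in Fc, 6, 5 and 4 in ABTAA, and 2, 2 and 1 in VEGF Trap, and it did not pass the filter. Its share of the summed Rraga and Rragb counts was 0.430% in Fc (exact 95% interval 0.246 to 0.698), 1.47% in ABTAA (0.822 to 2.40) and 0.440% in VEGF Trap (0.143 to 1.02), intervals that cover counting error only. The share in ABTAA rests on 15 Rragb counts against 16 in Fc, and the summed Rraga and Rragb counts beneath it were 1024 and 3720.

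Rragc and Rragd encode RagC and RagD, either of which completes the dimer with RagA. Rragc stood at 24.6, 29.4 and 29.4 CPM in Fc, 23.9, 17.6 and 24.6 CPM in ABTAA, and 30.4, 21.7 and 24.8 CPM in VEGF Trap. ABTAA lay just below Fc without overlap, its highest library being almost level with the lowest Fc library, while VEGF Trap overlapped Fc. The log2 fold changes were -0.34 ± 0.17 (-0.71 to 0.03) and -0.12 ± 0.17 (-0.48 to 0.24). Rragd stood at 15.04, 17.1 and 17.4 CPM in Fc, 14.9, 17.8 and 12.4 in ABTAA, and 17.6, 16.4 and 20.9 in VEGF Trap, and overlapped in all groups. Its log2 fold changes were -0.13 ± 0.18 (-0.51 to 0.25) and 0.14 ± 0.17 (-0.23 to 0.52). Rragc overlaps exons of 4930535I16Rik on the other strand, whose reads cannot be told apart from its own where counting ignores strand.

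Set against its partners within each library, Rraga counts were 2.71, 2.55 and 1.89 per count of Rragc plus Rragd in Fc. The same ratio was 0.888, 0.854 and 1.57 in ABTAA, and 0.684, 0.879 and 0.773 in VEGF Trap. No treated library reached the lowest Fc ratio, and ABTAA 3 was again the nearest to it. Per count of the 5 Ragulator genes together, Rraga had 0.433, 0.473 and 0.389 counts in Fc, 0.110, 0.098 and 0.200 in ABTAA, and 0.104, 0.123 and 0.107 in VEGF Trap. Such ratios are free of library scaling, but they count 3′ ends of RNA and are not ratios of proteins.

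**Figure D2:**
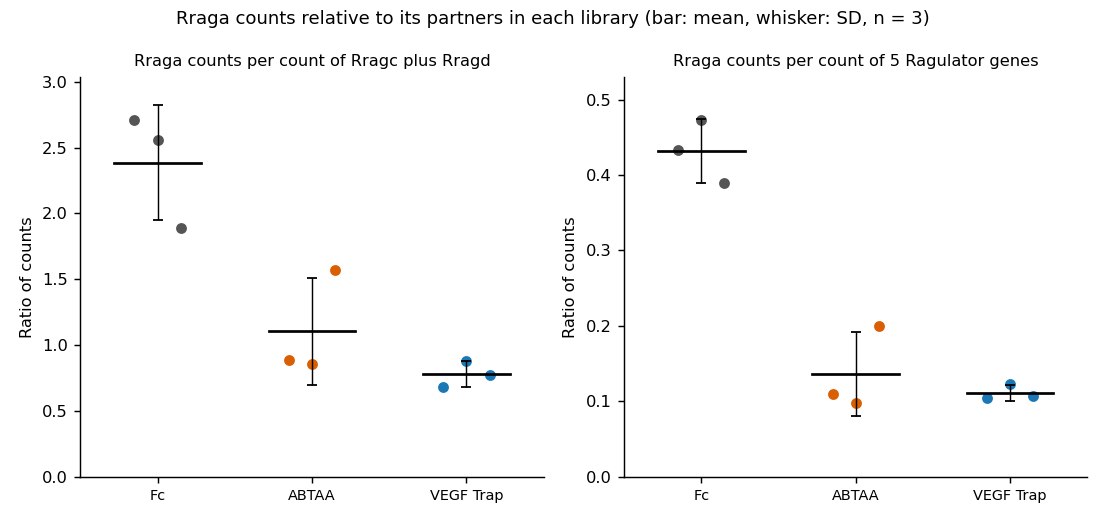
Rraga counts divided by the counts of Rragc plus Rragd (left) and of the 5 Ragulator genes (right) in the same library, on axes that start at 0. Points are libraries, bars are means and whiskers are SD (n = 3). The Fc libraries lie at 1.89 to 2.71 on the left and 0.389 to 0.473 on the right, and all 6 treated libraries lie below them.

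None of the 5 Ragulator genes passed the threshold in the edgeR fit in either comparison with Fc. Among all tested genes, 1.40% passed for ABTAA and 1.02% for VEGF Trap. The lowest adjusted p was 0.0833 for ABTAA (Lamtor1) and 0.0698 for VEGF Trap (Lamtor2). The alternative test DESeq2 called Lamtor1 (adjusted p = 0.0179) and Lamtor2 (adjusted p = 0.0424) for ABTAA. For VEGF Trap, Lamtor2 passed under 4 of 20 alternatives, DESeq2 among them. Lamtor1, whose lipid-anchored product wraps around the other subunits and fixes the complex to the lysosome, was at 54.8, 68.4 and 62.5 CPM in Fc and at 82.7, 87.3 and 83.7 CPM in ABTAA. In VEGF Trap it was at 67.2, 77.9 and 84.0 CPM. Every ABTAA library lay above Fc, whereas the lowest VEGF Trap library lay just below the highest Fc library. The log2 fold changes were 0.45 ± 0.13 (0.18 to 0.72) and 0.30 ± 0.13 (0.03 to 0.57).

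Lamtor2 and Lamtor3 encode a pair of roadblock-fold proteins that sit together in Ragulator. Lamtor2 was at 119, 103 and 100.5 CPM in Fc, 149.5, 151 and 130.3 CPM in ABTAA, and 174, 123 and 167 CPM in VEGF Trap. Both treated groups lay above Fc without overlap, with log2 fold changes of 0.42 ± 0.14 (0.13 to 0.71) and 0.52 ± 0.14 (0.23 to 0.81). Lamtor3 was at 23.4, 21.8 and 21.1 CPM in Fc, 21.5, 22.3 and 23.9 in ABTAA, and 17.2, 22.8 and 22.3 in VEGF Trap. Its groups overlapped, and its log2 fold changes were 0.03 ± 0.15 (-0.29 to 0.36) and -0.09 ± 0.15 (-0.41 to 0.23). The 3′ end of Lamtor3 matches the processed pseudogene Gm5900 over 109 bases at 100.0% identity, so reads from that stretch may come from either.

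Lamtor4 and Lamtor5 encode the other roadblock pair of the complex. Lamtor4 was at 36.9, 44.8 and 30.4 CPM in Fc, 44.6, 32.1 and 36.1 in ABTAA, and 46.3, 37.1 and 43.8 in VEGF Trap. Lamtor5 was at 14.6, 12.7 and 13.1 CPM in Fc, 13.9, 14.1 and 15.8 in ABTAA, and 10.2, 13.03 and 14.4 in VEGF Trap. The groups overlapped for both genes, and the log2 fold changes for ABTAA and VEGF Trap were 0.01 ± 0.17 and 0.18 ± 0.17 for Lamtor4 and 0.12 ± 0.18 and -0.10 ± 0.18 for Lamtor5. Over the 5 Ragulator genes the median log2 fold change was 0.12 for ABTAA and 0.18 for VEGF Trap, beside a median over all tested genes of -0.003 and 0.001.

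Akt1s1 encodes PRAS40, an inhibitory subunit of mTORC1 that Akt phosphorylates. It was at 83.9, 82.2 and 101 CPM in Fc, 122, 132 and 131 CPM in ABTAA, and 139, 122 and 149 CPM in VEGF Trap. All 6 treated libraries lay above every Fc library, with log2 fold changes of 0.53 ± 0.12 (0.27 to 0.78) and 0.62 ± 0.12 (0.36 to 0.88). Akt1s1 is rich in G and C (61.8% of its longest coding transcript), and a correction for GC content brought the values to 0.30 and 0.45, at which neither passed. For ABTAA the log2 fold change ran from 0.47 to 0.62 with each library left out, and Akt1s1 no longer passed without any single Fc or ABTAA library, without VEGF Trap 2 or 3, or with library totals alone. For VEGF Trap it ran from 0.56 to 0.71 and did not pass without Fc 1, Fc 2, VEGF Trap 1 or VEGF Trap 3. Its exons on chromosome 7 overlap those of Tbc1d17 on the other strand, which gave 0.16 ± 0.16 (adjusted p = 0.687) and 0.13 ± 0.16 (adjusted p = 0.754).

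Mtor, the kinase itself, had only 24 to 84 counts per library. It was at 3.46, 5.77 and 6.41 CPM in Fc, 5.78, 3.67 and 3.75 in ABTAA, and 4.48, 4.88 and 4.71 in VEGF Trap. The groups overlapped, and the intervals of the log2 fold changes were wide, at -0.24 ± 0.31 (-0.90 to 0.42) for ABTAA and -0.16 ± 0.31 (-0.81 to 0.49) for VEGF Trap. Rptor, which encodes the Raptor scaffold that the Rag dimer grips, stood at 16.3, 11.4 and 18.0 CPM in Fc, 12.0, 7.14 and 7.20 in ABTAA, and 10.8, 11.8 and 14.1 in VEGF Trap. Its log2 fold changes of -0.79 ± 0.24 (adjusted p = 0.112) and -0.32 ± 0.24 (adjusted p = 0.565) did not pass. Neither did those of Mlst8, a small subunit that steadies the kinase domain (-0.27 ± 0.16, adjusted p = 0.429, and -0.24 ± 0.16, adjusted p = 0.529), or of the inhibitor Deptor (-0.18 ± 0.13, adjusted p = 0.511, and -0.15 ± 0.13, adjusted p = 0.611). All counts of Rptor were multiples of 2 and all counts of Mlst8 multiples of 4, and the 3′ end of Mlst8 overlaps Bricd5 on the other strand over 168 bases.

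**Figure D3:**
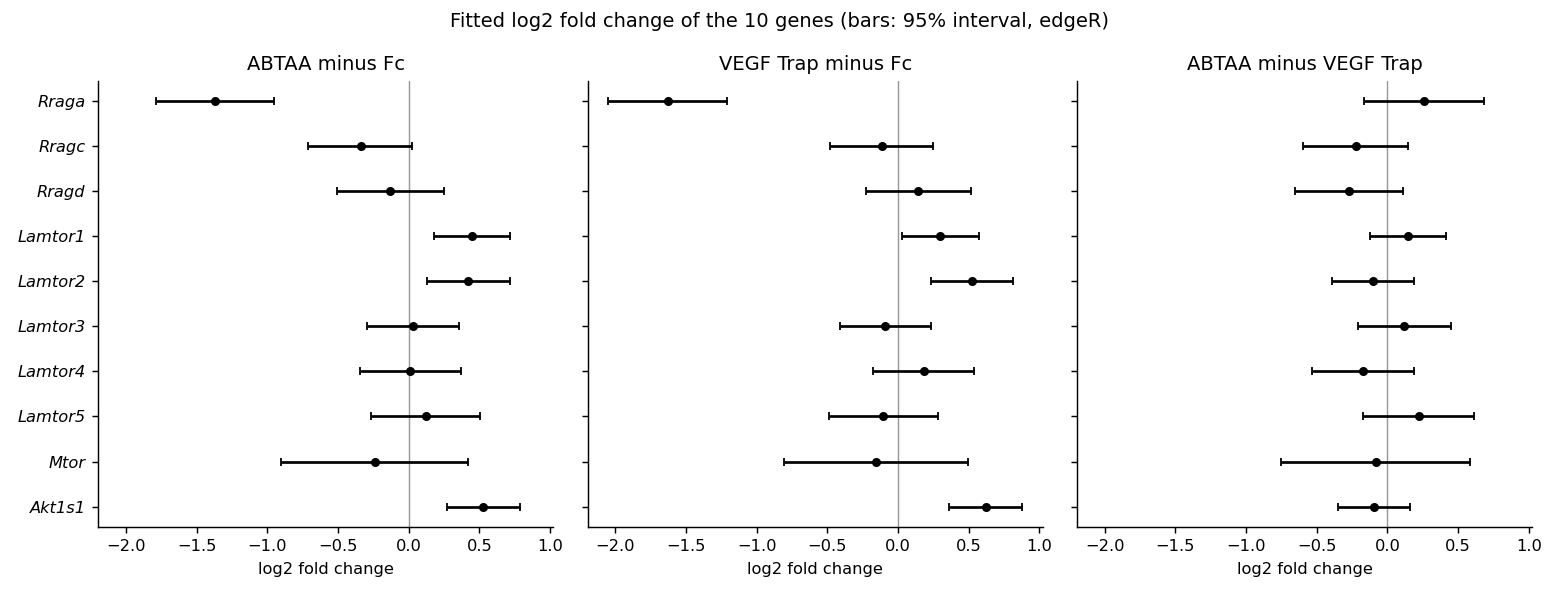
Fitted log2 fold change of the 10 genes in the 3 comparisons, with 95% intervals from edgeR. Rraga stands alone on the left in the comparisons with Fc (-1.37 and -1.63), Akt1s1 lies on the right (0.53 and 0.62), and every interval of ABTAA minus VEGF Trap includes 0.

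Rraga is left out of the count of genes that passed, since its difference from Fc chose the genes. Of the 9 others, 1 passed an adjusted p of 0.05 in each comparison with Fc (edgeR). It was Akt1s1, which was higher in both. In either direction, 1.40% of all tested genes passed for ABTAA and 1.02% for VEGF Trap. In the higher direction, 0.847% and 0.512% did. The groups did not overlap for 5 of the 10 with ABTAA, beside 23.0% of all tested genes, and for 3 of the 10 with VEGF Trap, beside 20.9%. Nothing is read from these counts, since the same comparisons chose the genes. Over the 9 genes other than Rraga, the median log2 fold change was 0.03 with ABTAA and 0.14 with VEGF Trap.

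ABTAA minus VEGF Trap sets the reagents against each other. Rraga was chosen for being low in both groups, which bears on its own difference between them, so its value is given without a test. None of the 10 genes passed, 0 of 14054 genes did so (0%), and 711 genes had an unadjusted p under 0.05 in edgeR. Rraga gave 0.26 ± 0.20 (-0.17 to 0.68), and Akt1s1 gave -0.09 ± 0.12 (-0.35 to 0.16, adjusted p = 0.971). Rragd gave -0.27 ± 0.18 (-0.65 to 0.11, adjusted p = 0.963), and Lamtor5 gave 0.22 ± 0.18 (-0.17 to 0.61, adjusted p = 0.964). The groups overlapped for all 10 genes, while they did not overlap for 9.88% of all tested genes. The log2 differences ran from -0.27 to 0.26, and Mtor had the widest interval (-0.75 to 0.59). A p that misses the threshold does not show that the reagents acted alike.

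Across the 9 libraries the log2 level of Akt1s1 had a Pearson correlation of -0.90 with that of Rraga, Lamtor2 of -0.83, Lamtor1 of -0.72 and Rragc of 0.50. The other 5 genes lay between -0.24 and 0.27. Among 8480 genes with a mean of at least 10 CPM, those most like Rraga were Lrpprc (0.98), an RNA-binding protein of mitochondria, Rps19 (0.98), a protein of the small ribosomal subunit, and Hspb8 (0.97), a small heat shock protein. Gm5148 (0.97), the nucleic acid binding protein gene Cnbp (0.97) and Dync1h1 (0.97), the heavy chain of cytoplasmic dynein, followed. Lrpprc stood at 49.9, 54.3 and 42.0 CPM in Fc, 17.7, 19.2 and 30.8 in ABTAA, and 17.6, 22.8 and 20.0 in VEGF Trap. As for Rraga, ABTAA 3 was its highest treated library, and no treated library reached Fc. These correlations are descriptions over libraries that share groups and scaling, and a gene that differs between Fc and both treated groups has a high value for that alone.

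Genes that set the nucleotide state of the Rag dimer did not pass the edgeR test in either comparison with Fc. Of 24 listed, 21 were tested, with a median log2 fold change of -0.08 for ABTAA and -0.05 for VEGF Trap. Among all tested genes, 1.40% passed for ABTAA and 1.02% for VEGF Trap, so a count of 0 says little about a list this short. Fnip1, a partner of the RagC and RagD activator folliculin, gave -0.21 ± 0.16 (adjusted p = 0.535) and -0.05 ± 0.15 (adjusted p = 0.929). Nprl3, of the GATOR1 complex that switches RagA off, gave 0.08 ± 0.13 (adjusted p = 0.801) and 0.01 ± 0.13 (adjusted p = 0.981). Wdr59, of the GATOR2 complex that opposes GATOR1, is named after its values were seen, and it stood at 18.5, 17.6 and 14.9 CPM in Fc, 8.37, 5.95 and 9.39 in ABTAA, and 5.22, 14.2 and 11.2 in VEGF Trap. Both treated groups lay below Fc without overlap, with log2 fold changes of -1.11 ± 0.30 (adjusted p = 0.0698) and -0.73 ± 0.29 (adjusted p = 0.225), and its difference with ABTAA passed under 5 of 20 alternatives. All counts of Wdr59 were multiples of 3. Of the 8 genes of the TSC and Rheb axis, which passes growth factor signals to mTORC1, 0 passed in either comparison. The same shares of all tested genes apply to this list. Tsc2 gave 0.09 ± 0.13 (adjusted p = 0.794) and 0.12 ± 0.13 (adjusted p = 0.704).

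Of the 17 genes of the vacuolar proton pump, which contacts Ragulator, 0 passed for ABTAA and 1 fell for VEGF Trap. Of all tested genes, 1.40% passed for ABTAA and 0.512% fell for VEGF Trap. Atp6v1b2, a subunit of its ATP-splitting head, fell from 237 ± 13.7 to 165 ± 11.2 CPM with VEGF Trap (log2 -0.52 ± 0.11, adjusted p = 0.0447), and stood at 172 ± 19.9 CPM with ABTAA (-0.47 ± 0.11, adjusted p = 0.0552). Without any single Fc or VEGF Trap library, or without ABTAA 1, it no longer passed (adjusted p of 0.0504 to 0.161). Atp6v0a1 and Atp6v0c, of the membrane sector, gave 0.50 ± 0.13 (adjusted p = 0.0717) and 0.31 ± 0.13 (adjusted p = 0.239) with VEGF Trap, and the list had a median of 0.01. Atp6ap1, the most abundant of the list, gave 0.152 ± 0.095 (adjusted p = 0.449) with ABTAA and 0.154 ± 0.095 (adjusted p = 0.479) with VEGF Trap.

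Among 14 direct and close targets of mTORC1, 1 rose with ABTAA and 1 fell with VEGF Trap, beside 0.847% and 0.512% of all tested genes. Tfeb, the transcription factor of lysosomal genes that mTORC1 restrains, was at 63.6, 74.3 and 67.1 CPM in Fc, 95.4, 132 and 96.2 in ABTAA, and 90.8, 104 and 122 in VEGF Trap. It rose with ABTAA (log2 0.66 ± 0.15, adjusted p = 0.0469), and gave 0.63 ± 0.15 with VEGF Trap (adjusted p = 0.0576). It no longer passed for ABTAA without any single Fc or ABTAA library or without VEGF Trap 2 (adjusted p of 0.0505 to 0.212) or with library totals alone (adjusted p = 0.0587), and GC correction brought it to 0.39 (adjusted p = 0.19). All counts of Tfeb were multiples of 3, so its counting error may be larger than the counts show, and the origin of that pattern was not tested.

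Ulk1, the kinase that starts autophagy and is held back by mTORC1, was at 44.0, 39.8 and 38.9 CPM in Fc, 19.0, 24.3 and 28 in ABTAA, and 16.6, 28.3 and 22.3 in VEGF Trap. Both treated groups lay below Fc without overlap. It fell with VEGF Trap (log2 -0.86 ± 0.19, adjusted p = 0.0447), and gave -0.79 ± 0.19 with ABTAA (adjusted p = 0.0523). The call for VEGF Trap was lost without any single Fc library, ABTAA 2, VEGF Trap 1 or VEGF Trap 3 (adjusted p of 0.0607 to 0.163). Eif4b, an initiation factor downstream of the mTORC1 substrate S6 kinase, gave 0.37 ± 0.11 (adjusted p = 0.112) and 0.49 ± 0.11 (adjusted p = 0.0509). Tfe3, the most abundant of the listed mTORC1 targets, gave 0.21 ± 0.11 (adjusted p = 0.336) with ABTAA and 0.12 ± 0.11 (adjusted p = 0.64) with VEGF Trap.

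Of the 18 lysosomal genes reported here that are known as TFEB targets, 0 passed in either comparison with Fc. Among all tested genes, 1.40% passed for ABTAA and 1.02% for VEGF Trap, so a count of 0 says little about a list this short. The list medians were 0.03 for ABTAA and 0.17 for VEGF Trap. The abundant members Psap (-0.08 ± 0.11 and -0.10 ± 0.11) and Ctsd (-0.06 ± 0.12 and 0.14 ± 0.12) did not pass. Gpnmb, also abundant, gave 0.255 ± 0.113 (adjusted p = 0.266) and 0.29 ± 0.11 (adjusted p = 0.222). The log2 fold change was above 0 for 10 of the 18 with ABTAA and for 16 with VEGF Trap. Of 4 mTORC2 genes and 15 tested genes of the amino acid and ATF4 response, which answers to amino acid shortage, 0 passed in either comparison. The same shares of all tested genes apply to these lists. Atf4 gave -0.08 ± 0.11 (adjusted p = 0.794) and -0.06 ± 0.11 (adjusted p = 0.861). For ABTAA minus VEGF Trap, 0 genes of these lists passed. With skeletal muscle markers added to the model, the genes no longer passed where they had been called, at log2 0.57 for Tfeb (adjusted p = 0.659), -0.55 for Atp6v1b2 (adjusted p = 0.272) and -1.23 for Ulk1 (adjusted p = 0.16). In that model 0 of all tested genes passed for ABTAA and 1 for VEGF Trap. DESeq2, listed among the alternatives, called more genes over all that were tested. It called 750 for ABTAA and 671 for VEGF Trap, against 197 and 144 in edgeR, and it also called more genes of these lists. For ABTAA it called Wdr59 and Rptor, 4 genes of the proton pump (Atp6v1b2, Atp6v0a1, Atp6v0d1 and Atp6ap2) and 3 mTORC1 targets (Ulk1, Tfeb and Eif4b). For VEGF Trap it called 3 genes of the pump (Atp6v1b2, Atp6v0a1 and Atp6ap2), the same 3 targets, and 1 lysosomal gene, Hexa.

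**Figure D4:**
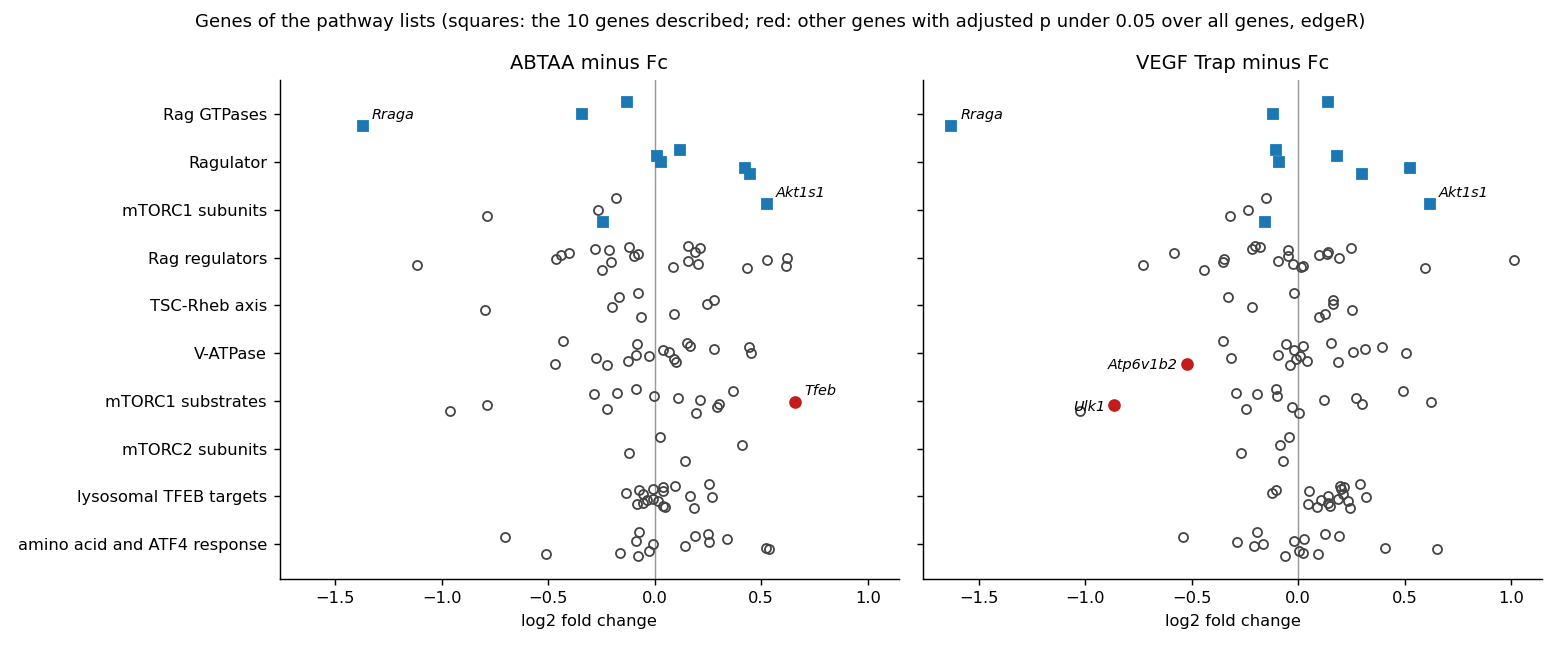
Log2 fold change of each tested gene of the pathway lists for ABTAA minus Fc and VEGF Trap minus Fc. Squares are the 10 genes described, red points are other genes with an adjusted p under 0.05 over all tested genes (edgeR), and open points are genes that did not pass. Rraga is the lowest square in both panels, and the red points are Tfeb for ABTAA and Atp6v1b2 and Ulk1 for VEGF Trap.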

How the data were processed

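The authors deposited raw counts for each library, as whole numbers by gene symbol. Per the labels' protocols, laser-captured tissue was made into QuantSeq 3′ libraries, and per the submitters' processing notes Bowtie2, edgeR and mm10 were used. Not given in the sources used here were versions, the annotation, the counter and its strand setting. The 9 libraries (3 per group, from the titles) were fitted in 1 model after filterByExpr and TMM scaling with edgeR 4.0.16 (quasi-likelihood F-test, R 4.3.3). This left 14054 genes, 6 residual degrees of freedom and a median SE of 0.20 on the log2 scale, and p-values were adjusted over all of them by Benjamini-Hochberg. The SE was taken as the size of the log2 difference over the root of its F statistic. The step was checked on simulated data. Log2 levels for correlations used a prior count of 2. Of genes tested, 2188 shared a divisor above 1 across libraries, but 0 of the 10 described did. Positions came from GENCODE M21 (GRCm38), and 3′ ends (200 bases) were searched with BLAST+ 2.17.0 for matches of 100 bases at 95% identity.

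The genes and lists were chosen with earlier results of these data known. Named genes are the 10, list genes past the threshold and up to 3 abundant ones per list, the 6 most like Rraga, its neighbours, and overlapping or near-identical genes. Rptor, Mlst8 and Deptor complete mTORC1. An item of the lists is not reported here, and list counts, medians and the plot leave it out. Alternatives were DESeq2 1.42.0, limma-voom (limma 3.58.1), RLE scaling, library totals alone, other filters, a replicate block, a fit of the compared groups alone, division by the common divisor, skeletal muscle total as a covariate, GC correction, and omission of each library. Photoreceptor markers summed to 31.4 to 152 CPM over all libraries.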

Additional observations from a re-analysis of the deposited data

How the results depend on the processing

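Rraga stayed lower than in Fc in both treated groups under all 20 alternatives, from -1.70 to -1.19 (log2) for ABTAA and from -1.74 to -1.53 for VEGF Trap. The alternatives refit the same libraries, in which low Rraga chose the genes. Its unchanged sign therefore describes the fits and is no test. Genes changed for ABTAA minus Fc numbered 197, against 750 with DESeq2, 411 with limma-voom, 684 with no filter, 301 with only the compared groups, 78 with GC correction and 0 with the skeletal muscle covariate, and leaving out each library in turn gave 0 (without ABTAA 2) to 373 (without VEGF Trap 1). Other omissions gave 47, 13 and 35 without Fc 1, 2 or 3, 58 without ABTAA 1 and 101 without VEGF Trap 2. For VEGF Trap minus Fc, 144 became 671 with DESeq2, 242 with limma-voom, 616 with no filter, 249 after division by the common divisor, 221 with library totals alone and 1 with the muscle covariate, and 7 (without Fc 2) to 144 with each library left out, with 18 and 32 without Fc 1 or 3, and 62, 60 and 25 without VEGF Trap 1, 2 or 3. Library totals alone moved the split of higher and lower from 119 and 78 to 66 and 106 for ABTAA, and from 72 and 72 to 39 and 182 for VEGF Trap. For ABTAA minus VEGF Trap, 0 became 1 with DESeq2 and 30 with no filter, and stayed 0 to 0 with each library left out.

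The counts of the 10 genes against Fc include Rraga, whose difference chose them, and are no test of it. Of the 10 genes, 2 passed for ABTAA minus Fc, against 4 with DESeq2, 1 with library totals alone, 1 with GC correction, 0 with the muscle covariate, and 0 to 2 with each library left out (0 without ABTAA 2). For VEGF Trap minus Fc, 2 became 3 with DESeq2, with no filter and with the replicate block, 1 with GC correction, 0 with the muscle covariate, and 1 to 3 with each library left out. For ABTAA minus VEGF Trap, 0 of the 10 passed under any alternative. The muscle covariate and the group are partly confounded, and the cause of the other differences was not tested. Deviations of same-numbered libraries had correlations from 0.013 to 0.112, all above 0. Differently numbered libraries were not compared, so whether the replicate numbers pair the libraries was not tested. With the replicate block 334, 300 and 1 genes passed in the 3 comparisons, against 197, 144 and 0 without it.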
